A study of Mus musculus with 6 samples.

Results

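The S100 and annexin genes described here are S100a4, S100a6, S100a8, S100a9, S100a10, S100a11, S100a13, Anxa1, Anxa2 and Anxa5, 10 of 22180 named genes on the array. The set was built around S100a6, which was chosen by its higher values on the Chd7f/f arrays, and the other 9 genes are S100 relatives and annexins. Genotype differences of these 10 genes are therefore given as a description and not as a test. The samples were c-Kit+ leukemic cells sorted from the spleen of mice with end-stage leukemia, 3 of genotype Chd7f/f, Mx1-Cre, Cbfb+/56M (called Chd7f/f) and 3 of genotype Mx1-Cre, Cbfb+/56M (called control). Both genotypes therefore share Mx1-Cre, a recombinase under an interferon-responsive promoter that is active in blood cells and in other tissues, together with Cbfb+/56M, which after recombination yields the Cbfb-MYH11 fusion known from inv(16) acute myeloid leukemia. All mice also received pIpC, which induces the recombinase, and the mutagen ENU. The ages of the mice are not given in the labels, and the design text calls the samples independent without stating that each was 1 mouse. Each sample was hybridised to 1 whole-transcript array, and values are the authors' RMA levels on the log2 scale. A probe set's level depends on its probes, so levels are compared between arrays for 1 gene and not between genes.

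S100 proteins are small calcium-binding proteins with EF-hand motifs that mostly work as dimers inside cells, and some are released to act on receptors of other cells. Annexins bind membrane phospholipids when calcium rises, and several of them take an S100 protein as a partner: S100A10 joins annexin A2, and S100A11 joins annexin A1. S100A8 and S100A9 together form calprotectin, an abundant cytosolic protein of neutrophils and monocytes. In myeloid cells the expression of calprotectin and of annexin A1 is known to increase with maturation.

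The upstream sequences of 4 genes are shown because S100a6 and S100a4 lie close together on chromosome 3 yet differed in their values across the arrays, and because S100a8 and S100a9 encode the paired subunits of calprotectin. S100a4 averaged 4.53 and may lie near background, where a pattern shared with S100a6 would not show. Each run is the 250 bases before the RefSeq gene start in build GRCm38.p6, 5′ to 3′ on the gene's strand. Capitals mark matches on either strand to the letters of a RUNX motif (TGTGGT), an AP-1 motif (TGANTCA), a C/EBP motif (TTNNGNAA) or a TATA box (TATAAA).
S100a6, chr3:90612644-90612893, plus strand: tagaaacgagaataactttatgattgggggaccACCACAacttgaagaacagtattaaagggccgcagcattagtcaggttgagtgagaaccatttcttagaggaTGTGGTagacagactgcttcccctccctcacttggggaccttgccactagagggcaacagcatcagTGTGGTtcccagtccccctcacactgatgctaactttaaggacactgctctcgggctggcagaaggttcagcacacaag
S100a4, chr3:90603520-90603769, plus strand: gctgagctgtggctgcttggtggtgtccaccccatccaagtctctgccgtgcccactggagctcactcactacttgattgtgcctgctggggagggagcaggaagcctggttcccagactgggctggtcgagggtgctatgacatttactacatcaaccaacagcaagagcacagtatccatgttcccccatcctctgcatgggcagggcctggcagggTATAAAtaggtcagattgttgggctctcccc
S100a8, chr3:90668821-90669070, plus strand: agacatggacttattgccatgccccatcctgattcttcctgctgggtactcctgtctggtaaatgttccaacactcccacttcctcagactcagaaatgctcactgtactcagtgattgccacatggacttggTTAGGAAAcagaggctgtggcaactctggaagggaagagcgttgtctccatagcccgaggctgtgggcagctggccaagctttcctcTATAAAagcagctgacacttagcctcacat
S100a9, chr3:90695722-90695971, minus strand: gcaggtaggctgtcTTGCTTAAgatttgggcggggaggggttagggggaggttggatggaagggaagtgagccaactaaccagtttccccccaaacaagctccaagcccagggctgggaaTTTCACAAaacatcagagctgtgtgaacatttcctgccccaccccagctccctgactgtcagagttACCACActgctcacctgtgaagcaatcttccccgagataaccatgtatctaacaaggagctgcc

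The S100a6 window held 3 matches to the RUNX letters, the binding core of the factors that Cbfb partners. At least 1 such match was present in 14% of the 32851 RefSeq promoter windows of the same length, and 3 or more in 0.113% of them, or 37 windows. The cut of 3 is the count of the S100a6 window itself, and no such share was computed for the other motifs, so nothing is read from it. The S100a9 window held 1 RUNX match, and the other 7 windows available for the set, S100a4 and S100a8 included, held none. C/EBP letters were found upstream of S100a8, S100a9 and Anxa1, 3 of the 9 windows, against 36.8% of all windows. AP-1 letters were found upstream of S100a11 and Anxa2, against 6.75% of all windows, and TATAAA upstream of S100a4, S100a8, Anxa1 and Anxa2, against 12.4%. GATA letters (AGATAA) were found in 2 windows, PU.1 letters (GAGGAA) in 3, GC boxes (GGGCGG) in 3 and E-boxes (CANNTG) in 6 of the 9, against 9.99%, 23.3%, 32.7% and 66.2% of all windows. No match of 1 motif overlapped a match of another in these 9 windows. The motifs were picked with the expression values known, and a match to letters is not a binding site.

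Of 13 leukemic progenitor markers 12 averaged at or above 5.78, which is 1 log2 unit above the arrays' median level. So did 8 of 8 erythroid, 8 of 12 mast cell and basophil, 0 of 7 B cell and 2 of 11 T and NK cell genes. For eosinophil genes it was 1 of 5, for megakaryocyte 2 of 5, for dendritic cell 2 of 8 and for endothelial and stromal genes 3 of 10. Among all named genes a mean of 5.67 stood at percentile 56.9 and a mean of 5.82 at percentile 58.4, so many genes of any kind reach this cut. Levels also depend on the probes, so such counts, here and below, are a rough description and nothing is read from them. The arrays were not alike in other respects that bear on the values below. Control replicate 1 stood apart on the first principal component, which held 33.7% of the variance, with a score of 55.0 against -25.1 to -3.3 on the other 5 arrays. Control replicate 2 had an Xist level of 10.08, where the remaining 5 arrays gave 3.30 to 3.88, and so has the female pattern. Kit, whose product was used for sorting, gave 12.48, 11.69 and 11.90 in Chd7f/f and 11.72, 12.12 and 11.68 in control leukemias. Chd7, the floxed gene, was at 5.48, 6.50 and 5.91 in Chd7f/f and at 6.17, 7.54 and 5.32 in control leukemias, with overlapping groups. Where its probes lie is not known here, and the level is no check of the deletion. Cpa3, the mast cell and basophil carboxypeptidase gene, lay between 12.92 and 13.09 on all arrays.

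S100a6 encodes calcyclin, which binds the ubiquitin ligase adaptor encoded by Cacybp. It was at 6.24, 7.46 and 5.99 in Chd7f/f leukemias, against 5.42, 5.61 and 5.13 in control leukemias. The lowest Chd7f/f value lay 0.38 above the highest control value, and Chd7f/f replicate 2 was the highest array by more than 1 log2 unit. Chd7f/f leukemias averaged 6.56 ± 0.79 and control leukemias 5.39 ± 0.24 (SD, n = 3 each), which is 1.18 higher (SE 0.39) in Chd7f/f, or 2.26-fold. The difference was 0.73 without Chd7f/f replicate 2 and between 1.05 and 1.46 without any of the other arrays. Separate groups of this kind, with Chd7f/f above control, were seen for 2.45% of the 15526 genes tested, and S100a6 was the 1 gene of the 10 that had them. Since S100a6 was chosen for this difference, nothing is read from that count.

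Anxa1 encodes annexin A1, a ligand of formyl peptide receptors that limits neutrophil recruitment. It was at 5.74, 5.07 and 5.94 in Chd7f/f leukemias, against 4.99, 5.19 and 4.68 in control leukemias. The groups overlapped through Chd7f/f replicate 2, which lay below control replicate 2. Chd7f/f leukemias averaged 5.58 ± 0.46 and control leukemias 4.95 ± 0.26 (SD, n = 3 each). The difference was 0.63 (SE 0.26), and leaving out 1 array gave 0.45 to 0.88. Thus S100a6 was highest on the Chd7f/f array where Anxa1 was lowest.

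The calprotectin genes S100a8 and S100a9 stood out on 1 array. S100a8 was at 3.60, 3.83 and 4.72 in Chd7f/f leukemias, against 3.46, 4.09 and 3.78 in control leukemias. S100a9 was at 4.38, 3.83 and 5.05 in Chd7f/f leukemias, against 3.98, 4.42 and 4.36 in control leukemias. Both were highest in Chd7f/f replicate 3, and the other arrays of the 2 genotypes were intermixed. The differences were 0.27 for S100a8 and 0.17 for S100a9, and without Chd7f/f replicate 3 they were -0.06 and -0.14. They reached 0.50 for S100a8 without Chd7f/f replicate 1 and 0.47 for S100a9 without Chd7f/f replicate 2, and a fit that weights each array by its fit to the rest (array weights) gave 0.58 and 0.39. S100a8 lay below the level of 4.13 required of a tested gene, and S100a9 just above it, so both may lie near background.

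S100a10 encodes p11, an S100 protein that has lost calcium binding and holds annexin A2 at the membrane. It was at 10.99, 11.35 and 11.29 in Chd7f/f leukemias, against 10.89, 11.19 and 11.20 in control leukemias. All 6 values lay within 0.46 of each other, and leaving out 1 array gave differences of 0.01 to 0.22. Its partner gene Anxa2 was at 7.13, 7.88 and 7.51 in Chd7f/f leukemias, against 7.32, 7.38 and 8.31 in control leukemias. Control replicate 3 was the highest array for Anxa2, and the groups of both genes overlapped. The differences were 0.11 (SE 0.16) for S100a10 and -0.16 (SE 0.33) for Anxa2, and that of Anxa2 was 0.16 when control replicate 3 was left out and 0.03 when Chd7f/f replicate 1 was.

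S100a11 encodes the S100 partner of annexin A1. It was at 8.46, 8.77 and 8.21 in Chd7f/f leukemias, against 8.42, 8.35 and 7.88 in control leukemias. The arrays of the genotypes overlapped, and the difference was 0.26 (SE 0.21), with 0.09 when control replicate 3 was left out and 0.40 when Chd7f/f replicate 3 was. A pseudogene copy, S100a11-ps, has a probe set of its own, at 6.66, 7.66 and 7.28 in Chd7f/f and at 7.0, 7.79 and 6.99 in control leukemias, and whether transcripts of both reach the same probes was not tested.

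S100a13 takes part in the release of FGF1, which has no signal peptide, and was at 8.08, 8.12 and 8.54 in Chd7f/f leukemias, against 8.10, 8.41 and 8.55 in control leukemias, a difference of -0.11 (SE 0.19), or -0.26 to -0.01 when 1 array was left out. Low and high arrays were found in both genotypes. S100a4 encodes a protein that binds non-muscle myosin and is linked to cell motility. It was at 4.56, 4.52 and 4.60 in Chd7f/f leukemias, against 4.59, 4.57 and 4.34 in control leukemias, and 5 of the 6 values lay between 4.52 and 4.60.

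Anxa5 encodes annexin A5, the phosphatidylserine-binding protein used to stain dying cells. It was at 11.05, 11.38 and 11.95 in Chd7f/f leukemias, against 10.02, 11.69 and 12.08 in control leukemias. Control replicate 1, the array that stood apart in the whole transcriptome, was the lowest by about 1 log2 unit. The difference was 0.20 (SE 0.56) with all arrays and -0.43 without control replicate 1, while leaving out control replicate 2 gave 0.41 and leaving out control replicate 3 gave 0.61. When Chd7f/f replicate 3 was left out it was -0.04. The SD within genotypes was 0.84, above that of 95.3% of tested genes, compared with 0.18 for S100a10 and 0.10 for S100a4. The median over all tested genes was 0.22.

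**Figure D1:**
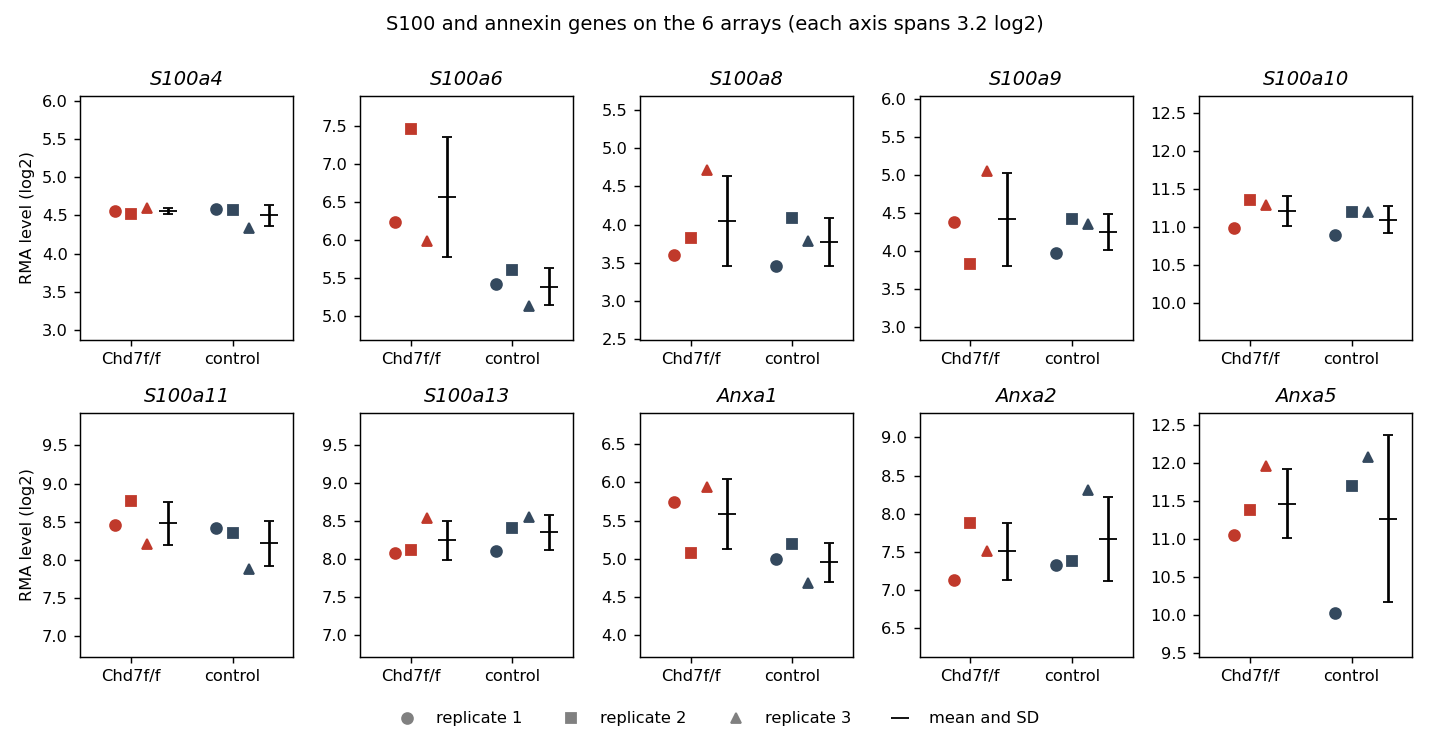
RMA level (log2, vertical axis) of each of the 10 genes on the 3 Chd7f/f arrays (red, left) and the 3 control arrays (dark, right), with marker shape for the replicate and black bars for mean and SD; every axis spans the same 3.2 log2 units. The Chd7f/f points of S100a6 all lie above its control points, and Anxa5 has 1 low control array at 10.02. The points of S100a4 span 0.26, those of S100a10 0.46 and those of S100a13 0.47.

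Over the set, 8 genes had a higher mean in Chd7f/f leukemias and 2, S100a13 and Anxa2, a lower one. Among all tested genes 43.7% had a higher mean in Chd7f/f leukemias. The median difference was 0.18 for the 10 genes and -0.03 over all genes tested. The count of 8 was 5 without Chd7f/f replicate 3, where S100a8, S100a9 and Anxa5 turned to lower values, and 7 without control replicate 1. Of the 10 genes 9 passed the filter on low levels, and 0 had an adjusted p under 0.05 in limma, as was the case for 0.0% of all genes. At an unadjusted p under 0.05, which 1.84% of genes reached, S100a6 alone was counted. With a fold of at least 1.5 upward as well, the share of all genes was 0.348%. Nothing is read from these counts, since S100a6 was selected on the same contrast.

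Most S100 genes form a cluster on chromosome 3, so the neighbours of S100a6 were set beside it. RefSeq places 15 S100 genes with a probe set of their own on that chromosome. S100a5, the nearest on the side of S100a4, was at 3.33, 3.67 and 3.36 in Chd7f/f leukemias, against 3.61, 3.50 and 4.0 in control leukemias. On the other side, S100a7a was at 5.56, 5.21 and 5.59 in Chd7f/f leukemias, against 5.54, 5.65 and 5.45 in control leukemias. Neither neighbour was separated by genotype, and both had lower means in Chd7f/f leukemias, by -0.25 and -0.09. Of this cluster S100a5 averaged 3.58, S100a7l2 3.34, S100a16 3.57 and S100a8 3.91, below the level of 4.13 required of a tested gene. S100a3 at 4.16, S100a9 at 4.34 and S100a4 at 4.53 lay little above it. All of these may lie near background, where a shared pattern would not show. S100a4, next after S100a5, differed by 0.06. In Chd7f/f replicate 2, where S100a6 was highest, S100a7a, S100a7l2 and S100a9 had their lowest values and S100a10 and S100a11 their highest. Over the 6 arrays the correlation with S100a6 was -0.28 for S100a5, -0.68 for S100a7a and 0.25 for S100a4, and it was highest for S100a11 at 0.82. These values share the 6 arrays and are given as a description.

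**Figure D2:**
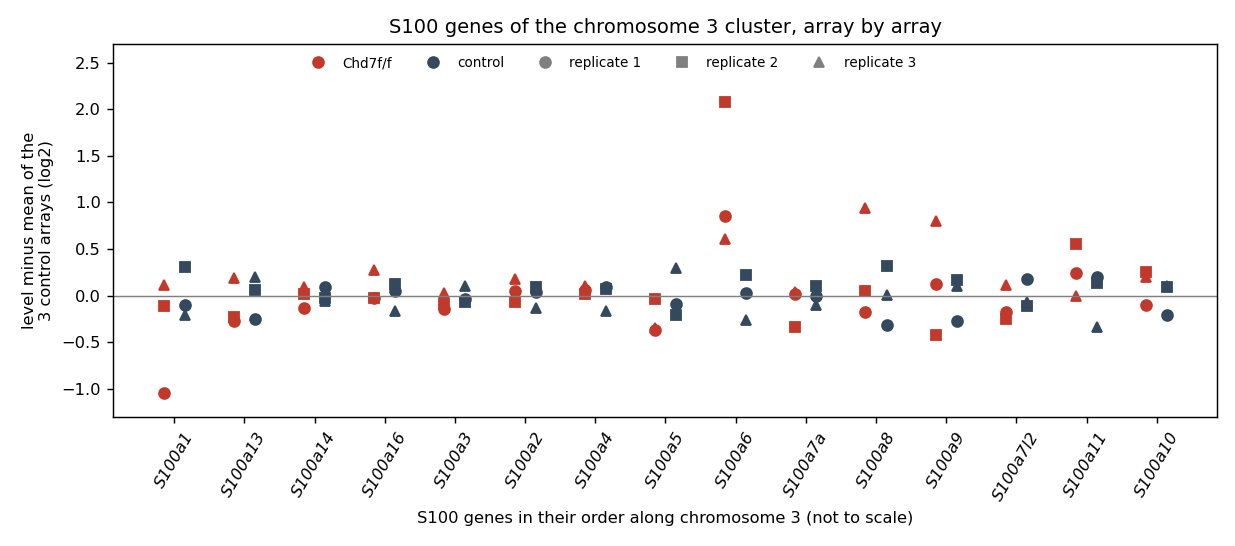
Level minus the mean of the 3 control arrays (log2, vertical axis) for the 15 S100 genes of chromosome 3 in gene order (horizontal axis, not to scale), with Chd7f/f arrays in red to the left of control arrays in dark and marker shape for the replicate. S100a6 is the gene whose red points all stand clear above its dark points, while S100a8 and S100a9 have 1 high point each, from Chd7f/f replicate 3.

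How the 10 genes vary together was examined over the 6 arrays in all 45 pairs, with Pearson's r and Spearman's rho, two-sided exact tests over all 720 pairings and Benjamini-Hochberg adjustment over the pairs. The median r was 0.19, with 29 pairs positive and values from -0.87 to 0.82. An unadjusted exact permutation p under 0.05 was reached by 4 pairs for r and by 1 pair for rho. No pair passed adjustment, and the lowest adjusted p was 0.458 for r and 0.661 for rho, in exact permutation tests. On deviations from the genotype means the median r was 0.13.

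For the calprotectin pair S100a8 and S100a9, r was 0.81 (exact permutation p = 0.0556, adjusted 0.458) and rho 0.60 (exact permutation p = 0.242, adjusted 0.704). It was 0.80 within genotypes, but 0.04 without the 2 arrays farthest from the median of S100a8. Of these 2, leaving out Chd7f/f replicate 3 alone gave 0.33 and leaving out control replicate 1 alone gave 0.77. For S100a10 and Anxa2, whose products form a complex, r was 0.59 (exact permutation p = 0.204, adjusted 0.635) and rho 0.77 (exact permutation p = 0.103, adjusted 0.661), with r at 0.02 without the 2 farthest arrays. For S100a11 and Anxa1, the other partner pair, r was 0.18 (exact permutation p = 0.747, adjusted 0.934) and rho 0.14 (exact permutation p = 0.803, adjusted 0.926), with r at -0.49 without the 2 farthest arrays.

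S100a6 and S100a11 had the highest r of all pairs, 0.82 (exact permutation p = 0.0611, adjusted 0.458), with rho 0.77 (exact permutation p = 0.103, adjusted 0.661). It was 0.81 on deviations from the genotype means, which removes the difference that S100a6 was chosen for, and -0.05 without the 2 farthest arrays. S100a13 and Anxa5 reached r = 0.81 (exact permutation p = 0.0292, adjusted 0.458) and rho = 0.94 (exact permutation p = 0.0167, adjusted 0.661), with 0.62 without the 2 farthest arrays and 0.88 within genotypes. Leaving out 1 array gave 0.75 to 0.97 for this pair. S100a11 and S100a13 ran opposite to each other, with r = -0.80 (exact permutation p = 0.0167, adjusted 0.458), rho = -0.83 (exact permutation p = 0.0583, adjusted 0.661) and r = -0.94 without the 2 farthest arrays. For S100a10 and Anxa5 r was 0.80 (exact permutation p = 0.0444, adjusted 0.458) and rho 0.60 (exact permutation p = 0.242, adjusted 0.704). It was 0.81 within genotypes, 0.50 without control replicate 1 and -0.59 without the 2 farthest arrays. S100a4 and Anxa2 had r = -0.87 (exact permutation p = 0.0361, adjusted 0.458) and rho = -0.49 (exact permutation p = 0.356, adjusted 0.726). That relation turned to 0.88 without the 2 farthest arrays, one of which is control replicate 3, where S100a4 was lowest and Anxa2 highest.

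**Figure D3:**
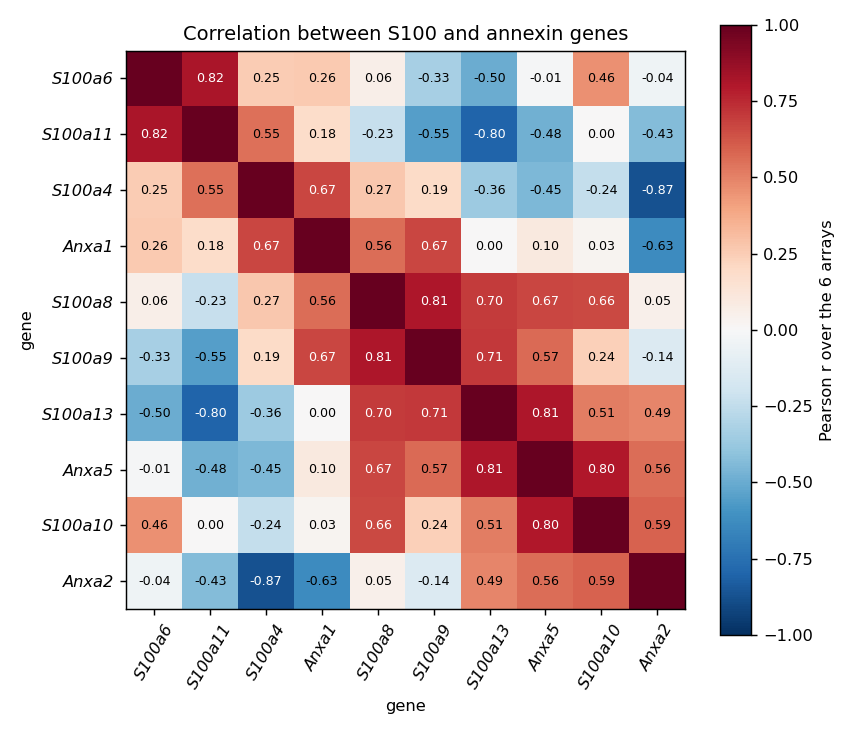
Pearson r over the 6 arrays for every pair of the 10 genes (both axes list the genes, colour and printed value give r; red is positive, blue negative). S100a8, S100a9, S100a13, Anxa5 and S100a10 form a block of positive r between 0.24 and 0.81 over all arrays, some of which turn negative without the 2 farthest arrays, and S100a6 has its highest value, 0.82, with S100a11.

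Genes with the array pattern most like that of S100a6, S100a8 and Anxa2 were taken by Pearson r over the 6 arrays among tested genes with an SD of at least 0.3. For S100a6, out of 4398 such genes, they were Popdc2 (0.97), B4galt4 (0.96), Rarg (0.96), Lama4 (0.95) and Mctp1 (0.95). Lama4, a laminin chain gene, was at 4.51, 6.79 and 5.06 in Chd7f/f leukemias, against 4.21, 4.48 and 3.84 in control leukemias, so it too was highest in Chd7f/f replicate 2. For S100a8 they were Mmp8 (0.96), P2ry6 (0.95), Clec5a (0.95), Igsf3 (0.94) and Ms4a6b (0.94), and Mmp8, which encodes neutrophil collagenase, was at 4.89, 5.55 and 6.66 in Chd7f/f leukemias, against 5.08, 6.14 and 5.32 in control leukemias. For Anxa2 they were Josd1 (0.98), Ubxn2b (0.97), Snx25 (0.97), St3gal4 (0.96) and Pctp (0.95), all with their highest value in control replicate 3. With 6 arrays high values of r are reached by many genes. At the lower cut of 0.9, and among all 15526 tested genes whatever their SD, r was over the cut for 0.438% with S100a6, 0.457% with S100a8 and 0.721% with Anxa2.

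The calprotectin genes and Anxa1 are also expressed by mature myeloid cells, so lists of such cells were set beside them. The sort for c-Kit+ cells would remove most mature neutrophils and monocytes, and its purity is not given in the labels. In a bulk sample, fewer cells of a type and less RNA per cell cannot be told apart. The 14 neutrophil granule genes, all measured, had a mean relative to their average over the arrays of -0.15, -0.21 and 0.61 in Chd7f/f and of -0.33, 0.25 and -0.17 in control leukemias. Their absolute mean level was 4.90 to 5.71 in Chd7f/f and 4.78 to 5.35 in control leukemias, and 4 of the 14 averaged at or above 5.78. In Chd7f/f replicate 3 Ngp reached 7.21 and Ltf 6.41, while no other array exceeded 6.51 for Ngp or 5.39 for Ltf. Cebpe, Il1b, Padi4 and Stfa2l1 of the same list were not highest there. Cebpe had its lowest value on that array, 5.18, and Stfa2l1 was at 3.71, against 4.26 in control replicate 2. The relative mean of that list followed S100a8 with r = 0.96 and S100a9 with r = 0.88 over the 6 arrays, values that share the arrays and carry no test.

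For monocyte and macrophage genes, 22 of 23 were measured by a probe set of their own, and 15 averaged at or above 5.78. Their relative mean was 0.23, -0.31 and 0.80 in Chd7f/f and -0.20, 0.17 and -0.70 in control leukemias, with absolute means of 5.99 to 7.10 and of 5.60 to 6.47. The relative means of the 2 genotypes overlapped. In Chd7f/f leukemias 20 of the 22 genes had a higher mean and 2 a lower one, against 43.7% higher among all tested genes. The median difference was 0.49, against -0.03 over all tested genes, and 0 of the 22 genes had an adjusted p under 0.05 (limma). These genes share the 6 arrays and are not separate observations. The macrophage pore protein gene Mpeg1, 1.12 higher, was the 1 gene of this list with an unadjusted p under 0.05, against 1.84% of all tested genes. The relative mean of the whole list followed Anxa1 with r = 0.94, S100a4 with 0.78, S100a9 with 0.73 and S100a8 with 0.70. S100a4 varied by only 0.26 over the arrays at a low level, so the relation was not particular to the genes known from mature myeloid cells. For Anxa2 r was -0.66, for S100a13 0.15, for S100a6 and S100a11 0.12, for Anxa5 0.11 and for S100a10 0.07. Anxa1 also followed the intracellular partners (0.93), dendritic cell genes (0.81), leukemic progenitor markers (0.78) and endothelial and stromal genes (0.76), so the relation was not limited to the monocyte list. S100a6 had its highest value in Chd7f/f replicate 2, where this list was lower than on any other Chd7f/f array. The part of such cells in the values of S100a8, S100a9 and Anxa1 was not tested. Erythroid genes, 8 of 14 measured, had relative means of -0.88, -0.03 and 0.47 in Chd7f/f and of 0.83, -0.39 and -0.01 in control leukemias, and r with the 10 genes lay between -0.31 and 0.16. Mast cell and basophil genes, all 12 measured, had relative means of 0.32, -0.05 and 0.12 in Chd7f/f and of -0.67, 0.18 and 0.10 in control leukemias, so that they and Anxa5 were both lowest in control replicate 1 (r = 0.76).

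**Figure D4:**
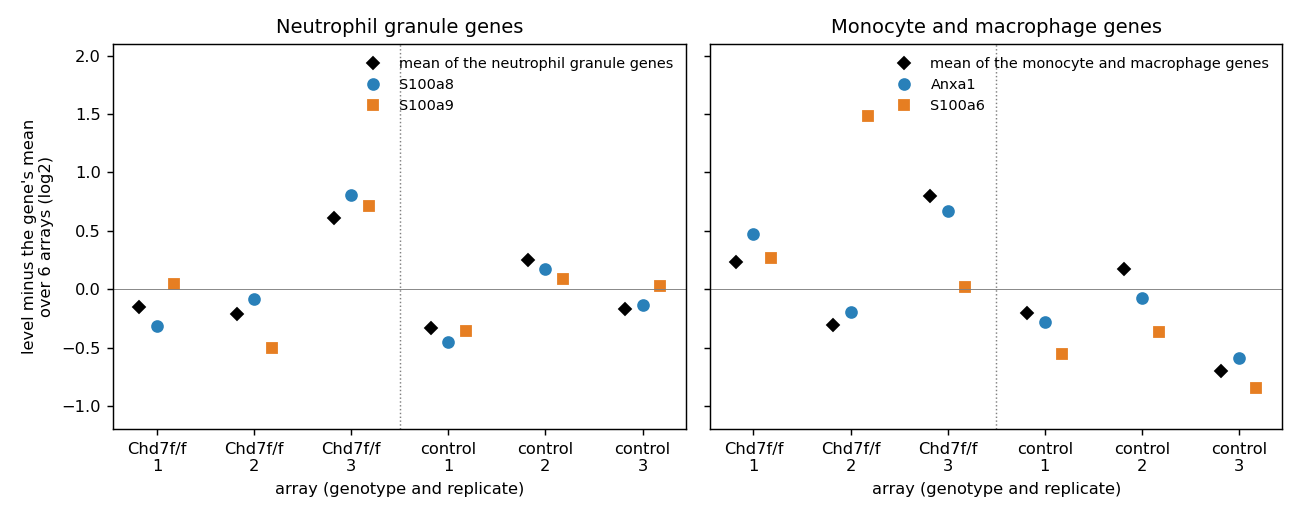
Level minus the gene's mean over the 6 arrays (log2, vertical axis) by array (horizontal axis), for S100a8 and S100a9 beside the mean of 14 neutrophil granule genes (left) and for Anxa1 and S100a6 beside the mean of 22 monocyte and macrophage genes (right). The left symbols share their high point in Chd7f/f replicate 3, and on the right Anxa1 stays near the list while S100a6 leaves it in Chd7f/f replicate 2.

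Of the other S100 genes, 11 had a probe set and 7 passed the filter on low levels. None passed the test of genotype (limma, adjusted p = 0.9998) or had an unadjusted p under 0.05. Their differences ran from -0.35 to 0.17, with 4 higher, 7 lower and a median of -0.01. S100a1, an S100 gene best known from muscle, was at 6.86, 7.80 and 8.02 in Chd7f/f leukemias, against 7.81, 8.21 and 7.70 in control leukemias, a difference of -0.35 (SE 0.33). S100g, which encodes calbindin-D9k, differed by 0.17 and S100a7a by -0.09. The groups of S100g did not overlap, with a gap of 0.03, as for 2.45% of tested genes with Chd7f/f above control.

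Of the other annexin genes, 8 of 9 had a probe set of their own, and 6 were tested. None passed the test (limma, adjusted p = 0.9998) or had an unadjusted p under 0.05. Their median difference was -0.17, with 3 higher and 5 lower. Anxa9 was at 5.81, 6.74 and 5.52 in Chd7f/f leukemias, against 8.16, 6.53 and 6.67 in control leukemias, a difference of -1.09 (SE 0.52). Control replicate 1 was its highest array, and Chd7f/f replicate 2 overlapped the control range. Anxa7 differed by -0.21 and Anxa3 by -0.35, the second with 1 high array, control replicate 2 at 5.47.

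Receptors of released S100 proteins and of annexin A1 gave no call. Of 9 listed, 7 had a probe set of their own and 4 were tested, with 0 at an adjusted p under 0.05 (limma) and 0 at an unadjusted p under 0.05. Ly96, the co-receptor of Tlr4, was at 8.62, 8.41 and 8.34 in Chd7f/f leukemias, against 7.60, 8.55 and 7.93 in control leukemias, a difference of 0.43 (SE 0.25, limma, adjusted p = 0.9998). Bsg, which encodes basigin, a receptor described for S100A9, had 1 low array, Chd7f/f replicate 1 at 9.99, with 10.95 to 11.12 on the remaining 5. Cd14 differed by -0.21. Tlr4 itself and Fpr2, an annexin A1 receptor, stayed under the filter, at 3.60 to 3.95 and 3.19 to 3.74 over all arrays.

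Among intracellular partners of the S100 and annexin proteins 15 of 16 had a probe set of their own and 14 were tested, with 8 higher, 7 lower, a median difference of 0.02 and 0 at an adjusted p under 0.05 (limma). Cybb, the oxidase subunit of the enzyme that calprotectin helps to activate, was at 6.98, 6.10 and 7.53 in Chd7f/f leukemias, against 6.11, 5.77 and 5.33 in control leukemias, a difference of 1.13 (SE 0.39, limma, adjusted p = 0.9998), and was the 1 of 14 tested partners with an unadjusted p under 0.05, against 1.84% of all tested genes. Like the monocyte and macrophage list, Cybb was highest in Chd7f/f replicate 3 and lowest in control replicate 3. Plat, the tissue plasminogen activator gene whose product binds the complex of annexin A2 and S100A10, was at 5.37, 5.41 and 5.44 in Chd7f/f leukemias, against 5.73, 5.63 and 5.62 in control leukemias. The groups of Plat did not overlap, as for 4.37% of tested genes with Chd7f/f below control, and the difference was -0.25 (SE 0.10, limma, adjusted p = 0.9998). Ahnak, a scaffold that binds the same complex, was at 9.08, 8.44 and 7.86 in Chd7f/f leukemias, against 8.46, 7.98 and 6.93 in control leukemias, a difference of 0.67 (SE 0.47) with overlapping groups.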

How the data were processed

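RNA of 6 samples, 3 per genotype by their titles, was measured on 1 array each. The deposited table holds log2 levels of 41345 probe sets; the authors used Affymetrix Expression Console and RMA, per the submitters' processing notes. Settings of both were not given in the sources used here. By design RMA removes background, forces arrays to 1 distribution and combines probes, so differences in total signal are lost. Array medians were 4.72 to 4.84.

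Of the probe sets, 23521 carried 1 symbol, updated by Entrez identifier in RefSeq GRCm38.p6, 1814 several and 16010 none. The probe set with the highest mean was kept per gene; each of the 10 genes had 1. Genes averaging at or above the 30th percentile, 4.13, were tested, 15526 in all, with limma 3.58.1 in R 4.3.3 (lmFit, eBayes, no covariate) and Benjamini-Hochberg adjustment over all of them. Steps were tested on simulated data.

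Promoter windows come from RefSeq (GRCm38.p6), with 9 of 10 genes matched; S100a10 was not. The 10 genes, the gene lists and the motifs were chosen with earlier results of these data known. Besides the 10 genes, the text names Kit, Chd7 and up to 3 genes of smallest p in each related list. It also names the 5 genes most like S100a6, S100a8 and Anxa2. Xist, Cpa3, Mpeg1, Tlr4, Fpr2, S100a3, S100a5, S100a7l2, S100a16 and S100a11-ps were added after their values were seen. So were Ngp, Ltf, Cebpe, Il1b, Padi4, Stfa2l1 and the values of Lama4 and Mmp8. Same-numbered arrays did not deviate together (r of 0.03, -0.02 and 0.03). The number of arrays limits precision, and p-values reflect only how these samples vary, which may be technical in part. Alternatives were renormalization, median centring, other filters, probe set means, another prior, weighted arrays, a replicate block and leaving out each array.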

Additional observations from a re-analysis of the deposited data

How the results depend on the processing

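Renormalization, median centring, other filters, probe set means, a trended robust prior and the replicate block left 8 of 10 genes higher in Chd7f/f leukemias, with S100a6 between 1.16 and 1.18; array weights gave 8 and 1.05, with Anxa1 at 0.84, Anxa2 at -0.31, Anxa5 at 0.12, S100a4 at 0.13 and S100a13 at -0.04. Leaving out 1 array gave 5 to 9 genes higher and medians from 0 to 0.29, the lowest without Chd7f/f replicate 3. The count of genes at an adjusted p under 0.05 in limma was 0 throughout, with 286 genes at an unadjusted p under 0.05 in the reported fit. Requiring a fold of at least 1.5 besides left 121 genes, or 186 with array weights and 128 to 283 when 1 array was left out (control replicate 2 gave 283, control replicate 3 gave 202 and Chd7f/f replicate 3 gave 183); the cause was not tested. The median r over pairs was 0.10 to 0.35 without 1 array, at 0.35 without control replicate 3 and at 0.29 without Chd7f/f replicate 2. Under the replicate block the count of 121 became 171, and 2 of 6 arrays correlated best with the array of their own number. Detection calls are not analysed here, so low levels such as those of S100a8, S100a9 and S100a4 may lie near background.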
